A study of Caenorhabditis elegans with 4 samples.

Results

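The 255 binding regions of the nuclear receptor NHR-6 on chromosome V of Caenorhabditis elegans are described here. They were taken from the study's list of 1209 regions by the chromosome named for each region, with no use of measured values. The other nuclear chromosomes held 953 regions, and 1 mitochondrial region was left aside. Chromosome V thus held 21.1% of the 1208 nuclear regions. For its length this was no excess over the other chromosomes together. The density was 12.2 regions per Mb on V (Poisson interval 10.8 to 13.8) and 12.1 on the others (11.4 to 12.9). Singly, I and III were denser than V, and II, IV and X were less dense. The study precipitated chromatin of L2 hermaphrodite larvae with a goat antibody to GFP and sequenced 2 libraries of precipitated DNA (ChIP) and 2 of input DNA, 1 of each for both replicate numbers. All 4 libraries came from worms of strain OP90, grown at 20 °C and crosslinked with 2% formaldehyde. These worms have the unc-119(ed3) mutation on chromosome III and the transgene wgIs90, made by biolistic transformation, which carries a working copy of unc-119 together with nhr-6::TY1::EGFP::3xFLAG, that is NHR-6 fused to EGFP and epitope tags. The genotype names no mutation of the native nhr-6 gene. No library from untagged worms is among the 4, so enrichment that does not come from NHR-6 cannot be told apart from its binding.

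NHR-6 is the worm's NR4A receptor, of the family that includes mammalian Nur77 and Nurr1. Receptors of this family are known to bind DNA also as monomers and to act without a known hormone, and NHR-6 is known for its part in forming the spermatheca, the chamber where oocytes are fertilised. Chromosome V is the longest worm chromosome. It is known for large families of chemoreceptor genes, many of them on its arms, while the centres of worm autosomes hold denser and more conserved genes and recombine less than the arms.

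For each region the list has a position on genome build WS180 and the peak caller's q-value. It gives no reads, fold enrichment or value per replicate, so the depth is unknown and no replicate error can be given. A region with a small q-value is called strong below, although q measures how surely a region was called rather than how fully it was bound. The regions of 1 list are not replicates, so comparisons between chromosomes are given with 95% intervals for counting error and with no test. Neighbouring regions are not independent, and these intervals are therefore too narrow. Gene names at these positions and the DNA sequence of the regions were not analysed here, because no annotation or genome of build WS180 was at hand.

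The smallest q-value of all 1208 nuclear regions was that of V:14684884-14689622 (q = 3.48e-33), nearly the same as that of the region in second place, which lay on X (q = 4.69e-33). The region of V was also the widest of its chromosome, at 4739 bp. The next on the chromosome was V:723835-728238, near the left end (4404 bp, q = 2.59e-23), which held the third place in the nuclear list. The following ones were V:6226441-6230032 (3592 bp, q = 3.01e-19) and V:5049312-5049895 (584 bp, q = 1.53e-17). The closest pair among these 4 lay 1.18 Mb apart.

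Chromosome V held 8 of the 20 strongest nuclear regions, 40.0% (Clopper-Pearson interval 19.1 to 63.9%), 16 of the 50 strongest, 32.0% (19.5 to 46.7%), and 24 of the 100 strongest, 24.0% (16.0 to 33.6%). Its share of all nuclear regions was 21.1%, which lay inside each of these intervals. Regions with q under 1e-10 numbered 13 on chromosome V, 5.10% of its regions (2.74 to 8.56%), and 32 on the other chromosomes, 3.36% (2.31 to 4.71%). The background over the whole nuclear list was 3.73%. With q under 1e-05 there were 45 regions, 17.6% (13.2 to 22.9%), against 15.6% (13.4 to 18.1%) on the other chromosomes and a background of 16.1%. With q under 0.001 there were 115, 45.1% (38.9 to 51.4%), against 40.3% (37.2 to 43.5%) elsewhere and a background of 41.3%. At each of these thresholds the interval for chromosome V held the background. The median −log10 q was 2.83 on chromosome V (interval of the median 2.62 to 3.07) and 2.71 on the others (2.65 to 2.78). By single chromosomes it ran from 2.50 on X to 2.90 on III.

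After the first 4, the strong regions of chromosome V were of mixed width. Narrow ones included V:14055085-14055493 (409 bp, q = 6.99e-15), 42.4 kb from the next region, and V:10897206-10897555 (350 bp, q = 5.35e-14), 28.1 kb from the next. Wider ones were V:9343019-9344689 (1671 bp, q = 2.34e-14) and V:6099657-6101049 (1393 bp, q = 3.04e-14). Farther right lay V:15188751-15191307 (2557 bp, q = 3.15e-13), V:15001090-15003287 (2198 bp, q = 1.98e-12), V:18637731-18639012 (1282 bp, q = 1.08e-11) and V:15186009-15188269 (2261 bp, q = 2.35e-10). Between the midpoint of the chromosome and these lay V:12317522-12318536 (1015 bp, q = 3.23e-11), V:14350444-14351453 (1010 bp, q = 6.33e-11), V:12551816-12553020 (1205 bp, q = 6.48e-10) and V:12967855-12968178 (324 bp, q = 2.73e-09). The remaining members of the strongest 20 were V:7727808-7729701 (1894 bp, q = 2.55e-10), V:9546828-9547555 (728 bp, q = 2.91e-10), V:1151148-1151994 (847 bp, q = 4.24e-09) and V:5505032-5505410 (379 bp, q = 4.95e-09). Of these 20 regions, 13 were 1 kb or wider, against 24 of the other 235 regions of the chromosome. The median width was 1244 bp in the 20 and 407 bp in the rest. Width and q-value come from the same calls, so this describes the list.

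Regions of chromosome V tended to be wider than those of the other chromosomes. Their median width was 421 bp (interval of the median 383 to 479 bp, quartiles 278 and 664 bp), against 357 bp on the others (337 to 375 bp, quartiles 235 and 608 bp), and these intervals did not overlap. By single chromosomes the medians ran from 336 bp on IV to 397 bp on X, each with an interval that overlapped that of V except on I (355 bp, 328 to 382 bp). Regions of 1 kb or more made up 14.5% on chromosome V (37 regions, 10.4 to 19.4%) and 9.76% on the others (7.95 to 11.8%). Singly they ran from 7.67% on I (4.92 to 11.3%) to 12.9% on X (8.06 to 19.2%). Those under 100 bp made up 6.67% on V (17 regions, 3.93 to 10.5%) and 10.9% on the others (9.00 to 13.1%). Singly they ran from 9.00% on I (6.01 to 12.8%) to 13.8% on IV (8.50 to 20.7%). For both shares the interval of each single chromosome overlapped that of V. In all, the regions of chromosome V covered 155 kb, which is 24.5% of the bases covered by nuclear regions and 0.745% of the chromosome. On the others together 0.608% was covered. Singly, more was covered than on V on I (0.947%) and III (0.775%), and less on II, IV and X.

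Against the other chromosomes pooled, the median width was greater on V at each level of strength, but not against each chromosome singly. Among regions with q under 1e-10 the median was 1393 bp on chromosome V and 944 bp on the others, and between 1e-10 and 1e-05 it was 734 and 602 bp. Between 1e-05 and 0.001 it was 476 bp on V and 448 bp elsewhere, and among the weakest regions 328 and 287 bp. The first of these classes holds only 13 regions of V, and I (1466 bp) and IV (1902 bp, 2 regions) lay above V in it. In the next class III lay above V, at 794 bp, and between 1e-05 and 0.001 so did X (551 bp) and IV (505 bp). Read the other way, the median −log10 q on chromosome V climbed with width, from 2.29 under 100 bp to 2.59 between 200 and 400 bp, 4.33 between 800 and 1600 bp and 8.54 in the 16 regions of 1600 bp or more. In the widest class 12 of 16 regions of V had q under 1e-05, 75.0%, against 61.8% of 34 on the other chromosomes. In the narrower classes the share was lower on V, at 35.1% against 38.8% elsewhere between 800 and 1600 bp, 12.9% against 16.0% between 400 and 800 bp, and 10.8% against 11.0% between 200 and 400 bp.

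**Figure D1:**
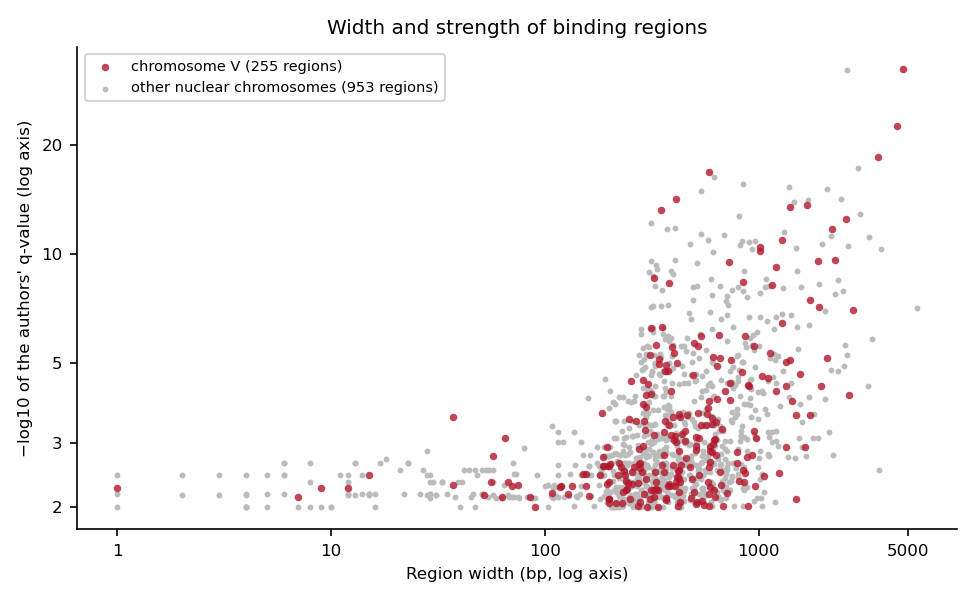
Width (bp, log axis) against −log10 of the authors' q-value (log axis) for the 255 regions of chromosome V (red) and the 953 of the other nuclear chromosomes (grey), 1 point a region. The strongest region of V is also its widest, at 4739 bp, and regions under 100 bp lie along the bottom.

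Wide and strong did not always go together. After the 3 widest regions, all named above, the next in width were V:13787405-13790161 (2757 bp, q = 9.51e-08) and V:6515052-6517702, which had a q-value of only 8.21e-05 over 2651 bp. At the other end, the narrowest were a single base at V:17948256 (q = 0.00547) and regions of 7, 9, 12 and 15 bp, at V:13594688-13594694, V:16800763-16800771, V:18605707-18605718 and V:1875192-1875206, all with q between 0.00350 and 0.00742. DNA fragments in ChIP libraries are usually longer than such stretches. A region of 37 bp, V:13323727-13323763, stood out among the 17 regions under 100 bp by its q-value of 2.83e-04, and was picked after the values were seen. The smallest q-value of the 104 such regions on the other chromosomes was 0.00121.

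Binding on chromosome V was concentrated just right of the middle. Each chromosome was cut into 10 segments of equal length, which on V are 2.08 Mb each. Segments 6 and 7, V:10421353-14589892, held 48 and 59 regions, or 107 of the 255 (42.0%, 35.8 to 48.3%) on 20% of the length. An earlier account of these data had already named these segments, so the interval does not test whether they are crowded. Their densities were 23.0 (Poisson interval 17.0 to 30.5) and 28.3 regions per Mb (21.5 to 36.5), and the other 8 segments together held 8.88 per Mb. On the right, segment 8 held 18 regions (8.64 per Mb, 5.12 to 13.6). Of these, 12 lay near its left edge in V:14684884-15191307, described below, at 23.7 per Mb. That stretch was picked after the values were seen, with its ends at strong regions, so it cannot show where the density fell. On the left, segment 5 held 28 regions (13.4 per Mb, 8.93 to 19.4). The left arm was sparsest in segment 2, with 9 regions (4.32 per Mb, 1.97 to 8.20), and segments 1, 4, 8 and 10 had 18 regions each. No segment of II, III, IV or X was as dense as segment 6 or 7 of V, and the densest of I reached 27.2 per Mb (19.5 to 36.9).

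**Figure D2:**
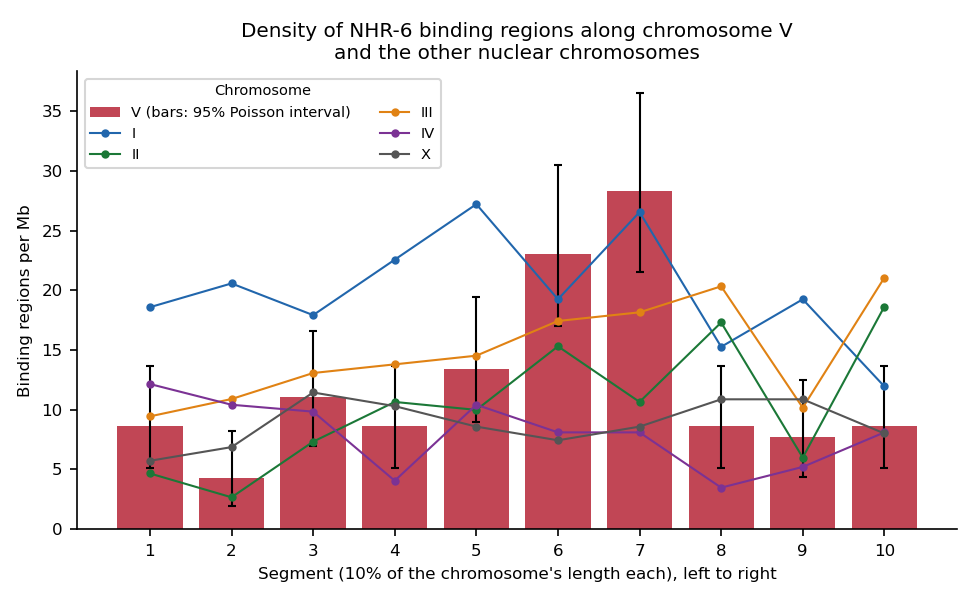
Binding regions per Mb in 10 equal segments of each nuclear chromosome, left to right. Bars with 95% Poisson intervals are chromosome V and lines are the other chromosomes; V peaks in segments 6 and 7, at 23.0 and 28.3 per Mb, while I is dense along most of its length.

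By 3 equal parts, the left part of chromosome V held 54 regions, 21.2% (16.3 to 26.7%), the middle 133, 52.2% (45.8 to 58.4%), and the right 68, 26.7% (21.3 to 32.5%). The middle share of the other chromosomes ran from 31.6% on X (24.4 to 39.6%) to 40.3% on I (34.7 to 46.1%). The interval of V overlapped narrowly with those of I and II (30.4 to 46.2%) and not with those of III, IV and X.

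The strongest regions were found along most of the chromosome. Of the 13 regions with q under 1e-10, 4 lay in segments 6 and 7, 30.8% (9.09 to 61.4%), which is within counting error of the 42.0% for all its regions, and the 13 fell in 7 of the 10 segments. Of the 45 with q under 1e-05, 21 lay there, 46.7% (31.7 to 62.1%). Of these, 16 were among the 59 regions of segment 7 and 5 among the 48 of segment 6. Regions of segments 6 and 7 had a median −log10 q of 3.07 (2.76 to 3.55) and a median width of 484 bp, and those of the other segments 2.60 (2.50 to 2.95) and 382 bp.

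Each segment had its own strongest region, and these differed by many orders of magnitude. In segments 1, 3, 5, 6, 7, 8 and 9 it had a q-value under 1e-10 and is among those named above. In segment 4 it was V:7727808-7729701 (q = 2.55e-10). The strongest of segment 2 was V:2133426-2133924 (499 bp, q = 2.01e-06), and that of segment 10 was V:18967624-18967963 (340 bp, q = 1.04e-05), which ranked only 197th in the nuclear list. Segment 10, at the right end, had no region with q under 1e-05 among its 18, where the background was 16.1%. Segments 3, 5 and 9 of II (11, 15 and 9 regions) and segment 9 of X (19 regions) had none either.

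**Figure D3:**
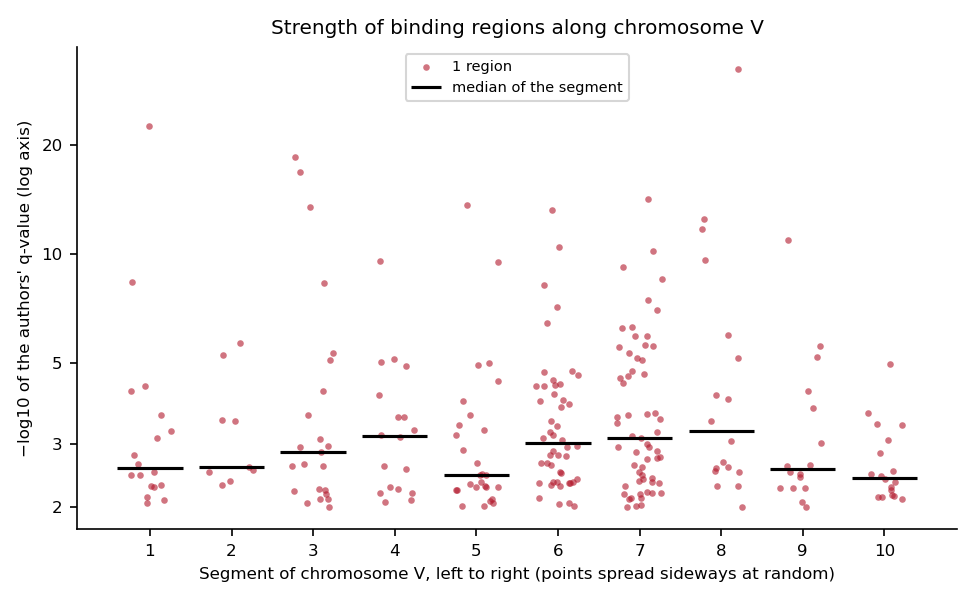
The −log10 of the authors' q-value (log axis) of each region of chromosome V by segment, left to right, with the median of each segment as a line. Medians lie between 2.42 in segment 10 and 3.25 in segment 8, and the strongest region of the list stands at the top of segment 8.

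Segment 8 held 18 regions, as many as segments 1, 4 and 10, with the highest median width of the chromosome, 615 bp. Of these 18, 6 had q under 1e-05, 33.3%, against 17.6% on all of V and a background of 16.1%. A share of 18 regions has a wide counting error. Among the segments of the other chromosomes, the share was higher in segment 1 of X (40.0%, 4 of 10 regions). It was the same in segment 9 of IV (33.3%, 3 of 9) and lower in the rest. All 6 such regions of segment 8 of V lay in 1 stretch of 506 kb, V:14684884-15191307, picked after the values were seen. Its ends were set by the regions of segment 8 that are among the 50 strongest of the nuclear list. This stretch held 12 regions, or 23.7 per Mb, and by construction all 4 of these strong ones. It also held 5 of the chromosome's 9 regions of 2 kb or more, and strong regions of this list tend to be wide. The strongest region of the list forms its left end. Its right end is a pair of wide regions, V:15186009-15188269 and V:15188751-15191307, only 481 bp apart. The regions of this stretch covered 18.3 kb.

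Farther right the chromosome was sparse over a long stretch. The longest stretches without a region were V:16965985-17857886 (892 kb), V:2600863-3315385 on the left arm (715 kb) and V:17982108-18605706 (624 kb). The fourth in length, V:15766526-16369988 (603 kb), named after the values were seen, lay left of both stretches on the right. From its start to V:18605706, over 2.84 Mb, there were 14 regions, or 4.93 per Mb. This part begins and ends with empty stretches named here, so its low density is partly by construction. None of the 14 was among the 50 strongest of the nuclear list. On all of V 16 of 255 regions were, so few or none would be looked for among 14. The longest gap on the other chromosomes ran from 414 kb on III to 1466 kb on II. In bins of 200 kb, 22 of 105 bins of chromosome V held no region (21.0%), against 5 of 76 on I (6.58%) and 21 of 87 on IV (24.1%). On II the share of empty bins was 21.1%. Bins with 5 or more regions made up 19.0% on V (20 bins), 36.8% on I (28), 21.7% on III (15) and 3.45% on IV (3).

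The regions of chromosome V often came in close groups. Of the 255 regions, 93 had another midpoint no more than 5 kb away, 36.5% (30.6 to 42.7%), against 25.3% on the other chromosomes together (22.6 to 28.2%). Chromosomes I (35.0%, 29.6 to 40.7%) and III (31.7%, 25.4 to 38.6%) were close to V, while IV had 18.1% (12.1 to 25.6%) and II and X 14.8% each (9.64 to 21.4%). The same 3 chromosomes had the highest densities, 12.2 per Mb on V, 19.9 on I and 14.9 on III, and the part of density in this share was not tested. On V, 45 of the 107 regions of segments 6 and 7 had such a neighbour, 42.1% (32.6 to 52.0%), and 48 of the 148 in the other segments, 32.4% (25.0 to 40.6%).

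Gaps between region edges showed a similar order at the shortest range. Of the 254 gaps between consecutive regions of chromosome V, 23 were of 1 kb or less, 9.06% (5.83 to 13.3%), against 4.64% (3.39 to 6.18%) of 948 gaps on the other chromosomes, with intervals that overlap narrowly. The shares by chromosome were 6.35% on I, 6.37% on III, 3.65% on IV, 2.60% on II and 1.95% on X. The median gap on V was 39.8 kb with quartiles of 6.19 and 92.5 kb, and on the others 46.7 kb with quartiles of 12.8 and 111 kb. No gap of the nuclear list was shorter than 206 bp, which is the gap left of V:4826484-4827615.

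**Figure D4:**
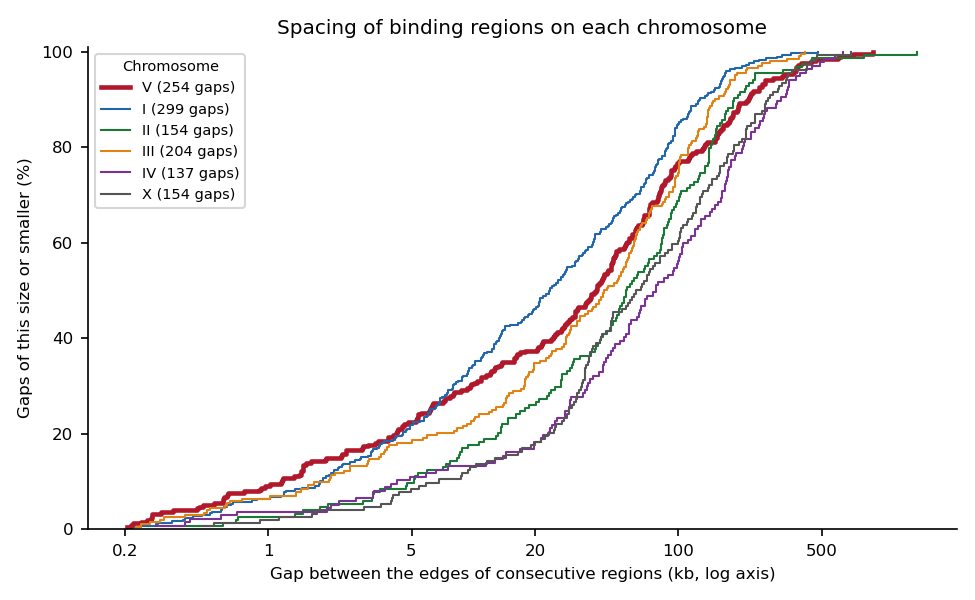
Share of gaps between consecutive regions that are of a given size or smaller (kb, log axis), 1 line a chromosome. At gaps of 1 kb the line of V is at 9.06% and the highest of the 6, near 5 kb it meets that of I, and it crosses those of the other chromosomes at larger gaps.

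In the 23 pairs on chromosome V with a gap of 1 kb or less, which involve 44 regions, the stronger region was also the wider one in 17. The strength within a pair differed by a median of 1.53 in −log10 q, with a range of 0.01 to 7.70. Several of the strongest regions had such a companion, which is nearly bound to be weaker than a region picked for its strength. The region V:14350444-14351453 (q = 6.33e-11) lay 301 bp from V:14351755-14352415 (661 bp, q = 0.00316). The region V:18637731-18639012 lay 241 bp from V:18639254-18639950 (697 bp, q = 6.31e-05), and V:7727808-7729701 lay 448 bp from V:7730150-7730784 (635 bp, q = 1.26e-05). Of the 20 strongest regions of the chromosome, 6 had a neighbour within 1 kb, 30.0% (11.9 to 54.3%), against 38 of the other 235, 16.2% (11.7 to 21.5%), with overlapping intervals. Others stood far from any other region. V:5049312-5049895 was 219 kb from the next edge, V:5505032-5505410 was 179 kb away and V:723835-728238 was 176 kb away. The strongest region of all was 7.12 kb from its nearest neighbour, V:14696743-14697382 (640 bp, q = 1.06e-04).

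When regions with midpoints within 5 kb of the next were joined in chains, chromosome V had 162 single regions and 39 groups, of which 30 were pairs and 9 held 3 or more. Chromosome I had more groups, 45, of which 12 held 3 or more, and III had 28, of which 6 did. Groups of exactly 4 numbered 2 on V and 3 each on I and III. Groups of 5 were found on V, in 2 places, and on none of the other chromosomes, where the largest held 4. One of them, V:10466312-10477226 in segment 6, spanned 10.9 kb with a strongest q-value of 6.20e-09. The other, V:20404515-20414621 near the right end, spanned 10.1 kb and was made of weak regions alone, with q between 8.61e-04 and 0.00738. Groups of 4 lay at V:12549451-12554706, where the 4 regions had q between 6.48e-10 and 2.45e-05 and at V:13656277-13662432, where q ran from 2.73e-06 to 0.00666. Of the 9 larger groups, 5 lay in segments 6 and 7. These groups were picked by size after the values were seen.

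The most crowded 200 kb of the chromosome lay in segment 7, where 13 regions spanned 164 kb, V:13551473-13715833. None was among the 20 strongest of the chromosome's 255 regions. The strongest was V:13565074-13565611 (538 bp, q = 1.11e-06), which ranked 129th in the nuclear list, followed by V:13658467-13658986 (520 bp, q = 2.73e-06) and V:13715178-13715833 (656 bp, q = 6.62e-06). The other 10 had q between 2.43e-04 and 0.00770. At the left end lay V:13551473-13551932 (q = 2.51e-04) and V:13556719-13557143 (q = 2.43e-04), similar in width and strength, with 4.79 kb between them. The strongest region of the window then had V:13565883-13566250 (q = 0.00770) and V:13568554-13569144 (q = 0.00118) close to its right.

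In the middle of this window, V:13594688-13594694, of 7 bp, and V:13627222-13627619 (398 bp, q = 0.00242) stood apart. A run of 4 followed. V:13656277-13657132 (856 bp, q = 0.00448) and V:13657389-13658198 (810 bp, q = 0.00434) lay 256 bp apart, V:13658467-13658986 began 268 bp after them, and V:13662305-13662432 (128 bp, q = 0.00666) closed the run. V:13678297-13678878 (582 bp, q = 0.00663) was the last before the region at the right end. The widths in the window ran from 7 to 856 bp with a median of 520.0 bp, and its median −log10 q was 2.62, against 2.83 for the chromosome. Of the 13 regions, 3 had q under 1e-05 and 5 had q under 0.001, where the shares on all of V were 17.6% and 45.1%. With so few regions, the window cannot be told apart from the chromosome in strength. Chromosome I also reached 13 regions in 200 kb, and no other chromosome reached more than 10.

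**Figure D5:**
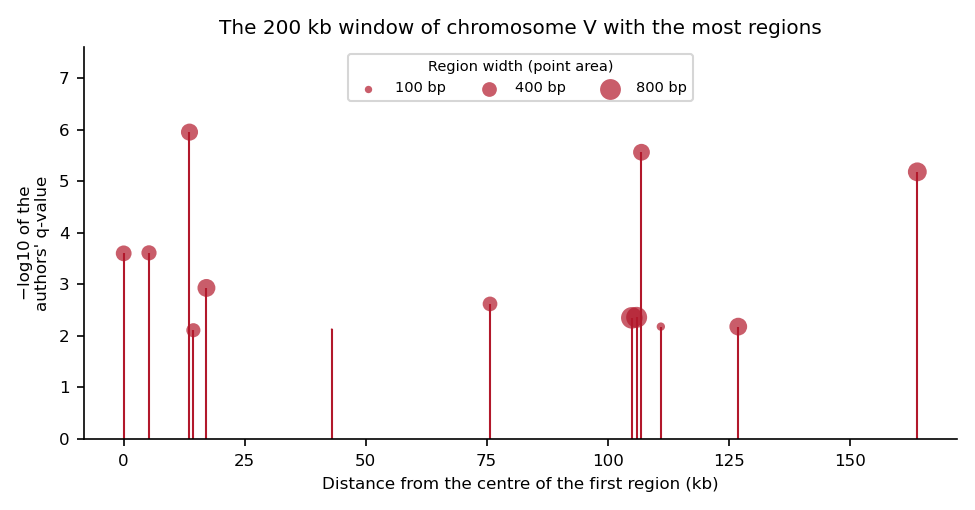
The 13 regions of the most crowded 200 kb of chromosome V, by the distance of their centres from that of the first (kb), with −log10 of the authors' q-value as height and width as point area. The 3 tallest stand at 5.95, 5.56 and 5.18, apart from one another, and the run of 4 regions lies between 105 and 111 kb.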

How the data were processed

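Per the labels' protocols, DNA precipitated with anti-GFP serum from tagged L2 worms and input DNA were made into Illumina libraries. The authors deposited 1 combined list of regions with a q-value for each. Per the file headers, the list is on build WormBase WS180 and its source is PeakSeq, which scores ChIP reads against input reads. How reads were aligned, regions called and replicates combined is not given in the sources used here. All deposited q-values were under 0.01.

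Widths, midpoints, gaps and −log10 q were derived from these values (Python 3.11.15; scipy 1.17.1; pandas 2.3.3; numpy 2.4.6; figures, matplotlib 3.10.9). The length of a chromosome was taken as the end position of its last region. Shares have exact Clopper-Pearson intervals, counts exact Poisson intervals and medians order-statistic intervals, all at 95%. The functions were checked on made-up lists. Named regions are the 20 strongest of chromosome V, the strongest of each segment, those of the most crowded 200 kb window, the 5 widest and 5 narrowest, and the 3 longest empty stretches. A few others were picked after the values were seen, as said beside them. The members and these rules were chosen with earlier results of these data known.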

Additional observations from a re-analysis of the deposited data

How the results depend on the processing

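Of 25 values recomputed with another setting, 19 stayed within the interval of the value reported, or within 1.5 times the count. The 6 that moved were these. The share of chromosome V regions in the central part was 29.8% for the middle 20% and 71.8% for the middle 50% of the length, by construction. The share in segments 6 and 7 was 50% (67 of 134) in the 604 strongest nuclear regions, against 42.0%. The share with a neighbour was 20.4% within 2 kb and 48.2% within 10 kb, by construction, and 26.9% among those 604, where fewer regions are left to be neighbours. Merging regions within 1 kb left 232 regions, and dropping those under 100 bp left 238. No paired analysis was possible because the list has no value per replicate, and leaving out a replicate was impossible too. The planned values near gene starts and for the receptor's response element were not run, since no annotation or genome of build WS180 was used here. With no depth given, the number of missed weak sites is unknown.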
